A study of Mus musculus with 6 samples.

Results

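Dual-specificity phosphatases *Dusp4*, *Dusp5* and *Dusp6*, Sprouty inhibitors *Spry1*, *Spry2* and *Spry4*, Sprouty-related inhibitors *Spred1* and *Spred2*, and Ets transcription factors *Etv4* and *Etv5* were examined as feedback genes of the ERK pathway. These 10 genes were taken by symbol from the 17092 genes of the RNA-seq count table, and all 10 were among the 13075 genes with enough reads to be tested. The RNA was that of embryonic fibroblasts (MEFs), the connective tissue cells that grow out of mouse embryos, of WT mice and of *Aff3ir-ORF2*-/- mice, which lack *Aff3ir-ORF2* in the whole body. *Aff3ir-ORF2* is a protein encoded by a transcript variant of *Aff3ir*, a gene nested in the gene *Aff3*. The study examined its role in atherosclerosis and sequenced this RNA to look for the mechanism. There were 3 libraries per genotype, numbered as replicates 1 to 3, and the labels name neither a treatment nor flow, nor the age or sex of the embryos. The labels do not say whether the libraries came from separate embryos or cultures, so the p-values measure the spread between these libraries, which may be technical.

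Growth factor receptors activate Ras, which passes the signal through the kinases Raf and MEK to ERK, and active ERK enters the nucleus and turns on transcription. Among the genes it turns on are brakes on the same pathway: Dusp phosphatases remove the activating phosphates from ERK itself, while Sprouty and Spred proteins act further up, between the receptor and Raf. *Etv4* and *Etv5* are induced by the same signal, above all below fibroblast growth factor receptors, and the transcripts of the whole group are widely read as a gauge of pathway output in fibroblasts and other cells.

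The libraries held between 17435133 and 18252330 counts. *Aff3ir-ORF2*-/- replicate 2 stood apart: the biological coefficient of variation, the relative spread between replicates beyond counting error, was 0.0185 in WT and 0.0996 in *Aff3ir-ORF2*-/- MEFs, and 0.0641 without replicate 2. Each member is therefore also given without this library. The library was picked by its spread in these same data, and leaving it out lowers the spread. Adjusted p-values without it are therefore not to be compared with those of all libraries. Fibroblast markers were high in every library. Their summed level was 30474 to 30573 CPM (counts scaled to the size of the library) in WT and 25435 to 32287 CPM in *Aff3ir-ORF2*-/- MEFs. The sum covers changes of single markers in both directions. By the rule given below, 1 of 12 was called lower (8.33%, beside 7.32% of all genes tested) and 3 higher (25%, beside 14.3%). Among those not called, the mean of *Col1a1* went from 7363 CPM in WT to 5243 CPM in the knockout, and that of *Fn1* from 8867 to 12072 CPM. All 16 of 16 macrophage markers were called higher in *Aff3ir-ORF2*-/- MEFs (100%, beside 14.3% of all genes tested). Their sums were 22.9 to 26.7 CPM in WT and 1339, 1836 and 2288 CPM in *Aff3ir-ORF2*-/- replicates 1, 2 and 3. Of the 16, 3 had 3 or fewer counts in every WT library, among them *C1qa* and *C1qb* at 0 counts. Markers so low in WT passed the filter on low counts only through the knockout libraries, so their calls are no added support. Summed markers of endothelial cells (11.4 to 11.8 CPM in WT, 16.8 to 22.6 in the knockout), epithelial cells (1.04 to 1.42 and 1.07 to 1.81), skeletal muscle (10.8 to 11.0 and 38.8 to 57.5) and neural cells (43.7 to 48.4 and 23.2 to 27.9) were low in both genotypes. The part of these cells in the results that follow was not tested. In bulk RNA, fewer cells of a type and less RNA per cell cannot be told apart. *Aff3ir-ORF2* itself was not analysed here.

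Promoter sequences of 7 of the 10 genes were matched in RefSeq (build GRCm38.p6), with 8 start sites in all. The 3 shown were picked by the responses found below: the deepest drop (*Dusp5*), a moderate one (*Dusp6*) and a small one (*Etv5*). Picked by the response, they cannot tie a motif to it. Capitals mark, on either strand, the CArG box bound by serum response factor and 3 cores. These are the Ets core GGAAGT, the Capicua core TGAATG and the cyclic AMP response core TGACGT. A core is only a part of the full site. No overlapping pair of these motifs was found in the stretches shown. The *Dusp5* stretch lies on the plus strand at chr19:53528895-53529108, from 250 to 37 bases before the start, that of *Dusp6* on the plus strand at chr10:99262981-99263230 and that of *Etv5* on the minus strand at chr16:22438369-22438618, the last 2 being the 250 bases before a start.
Dusp5: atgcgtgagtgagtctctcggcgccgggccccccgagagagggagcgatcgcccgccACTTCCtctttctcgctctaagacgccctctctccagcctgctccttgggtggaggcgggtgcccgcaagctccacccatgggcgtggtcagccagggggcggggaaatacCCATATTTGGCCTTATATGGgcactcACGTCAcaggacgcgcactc
Dusp6: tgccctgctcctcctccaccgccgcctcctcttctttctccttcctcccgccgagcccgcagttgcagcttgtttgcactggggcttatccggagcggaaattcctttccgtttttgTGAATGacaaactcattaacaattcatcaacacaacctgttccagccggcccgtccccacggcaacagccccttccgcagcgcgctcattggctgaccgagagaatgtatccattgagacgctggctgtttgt
Etv5: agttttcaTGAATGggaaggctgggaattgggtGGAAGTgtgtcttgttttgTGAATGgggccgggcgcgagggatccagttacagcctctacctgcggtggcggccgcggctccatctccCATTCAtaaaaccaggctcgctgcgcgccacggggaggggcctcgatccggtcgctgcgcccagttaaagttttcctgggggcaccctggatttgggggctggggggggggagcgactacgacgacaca
The *Dusp5* stretch held a pair of adjoining CArG boxes that began 82 and 72 bases before the start. A CArG box was found in 1.47% of the 32851 mouse promoters searched over the same 250 bases. Among the member promoters searched it was in that of *Dusp5* alone. *Dusp4*, *Spry4* and *Etv4*, all called lower below, had no matched promoter and were not searched. TGAATG stood in the promoters of *Dusp6*, *Etv5* and *Dusp5*, and in 10.9% of all promoters. In that of *Dusp5* it lay from 37 to 32 bases before the start, across the end of the stretch shown and so not capitalized there. GGAAGT stood in those of *Dusp5*, *Etv5* and *Spred2* and in 19.7% of all promoters. TGACGT was in those of *Dusp5* and *Spred2* and in 6.47%. The sites of *Etv5* all lay before the start shown, and none before its other start. The AP-1 site TGANTCA (6.75% of all promoters) and the Egr site GTGGGCG (7.02%) were in none of the 8 member promoters searched. None of the motifs was found in the promoters of *Spry1*, *Spry2* and *Spred1*, of which *Spry2* is called lower below. *Spred2*, which held GGAAGT and TGACGT, is not called. A match of letters is a description of the sequence and was not tested for binding.

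Of the feedback genes, 6 fell in *Aff3ir-ORF2*-/- MEFs and none rose, with all 3 phosphatases, 2 of the 3 Sprouty genes and *Etv4* among those that fell. A gene was called changed at an adjusted p under 0.05 in edgeR's quasi-likelihood test (p-values adjusted by Benjamini-Hochberg over all genes tested) and at least a 1.5-fold difference, which is 0.585 on the log2 scale. By this rule 6 of the 10 were called lower, beside 7.32% of all genes tested, and 0 were called higher, beside 14.3%. *Spred1* alone was higher at an unadjusted p under 0.05, and DESeq2 and limma voom called 0 higher and 6 lower as well. By the adjusted p alone, 7 were lower, beside 27.6% of all genes tested, and 1 was higher, beside 29.4%, so that 8 of the 10 passed it, beside 56.9%. The median log2 fold change of the 10 genes was -0.75, and that of all genes tested was 0.01. In 8 of the 10 the libraries of the genotypes did not overlap, beside 66.0% of all genes tested, a share too common among all genes to mark out the members.

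*Dusp5* encodes a nuclear phosphatase specific for ERK and changed the most. It had 1341, 1296 and 1225 counts in WT replicates 1, 2 and 3 and 484, 203 and 512 counts in *Aff3ir-ORF2*-/- replicates 1, 2 and 3. Counts of other genes follow in the same order. Every knockout library was far below every WT library, and replicate 2 was the lowest. The mean level was 73.8 ± 3.83 CPM in WT and 21.8 ± 9.46 CPM in *Aff3ir-ORF2*-/- MEFs (SD, n = 3 each), a 3.39-fold lower level (log2 fold change -1.76, with a standard error, SE, of 0.26, adjusted p = 0.000507). Without *Aff3ir-ORF2*-/- replicate 2 the log2 fold change was -1.44 (adjusted p = 8.82e-09). In the GENCODE M21 annotation an exon of *Dusp5* overlaps the opposite-strand gene AC137853.2, which the count table does not list, and since the strand setting of the counting is not given in the sources used here, reads of the 2 genes could not be told apart.

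*Dusp6* encodes a cytoplasmic phosphatase specific for ERK and is a standard readout of the pathway. Its counts were 1344, 1309 and 1399 in WT, against 784, 635 and 843 in the knockout. The genotypes were apart, with means of 77.5 ± 2.84 and 41.0 ± 6.18 CPM (SD, n = 3 each). It fell with a log2 fold change of -0.92 (SE 0.10, adjusted p = 8.01e-05), and -0.80 without replicate 2 (adjusted p = 1.7e-07). In RefSeq the span of the gene Gm34921 overlaps that of *Dusp6*, a match of spans without regard to strand or exons.

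*Dusp4* encodes a nuclear phosphatase that acts on ERK and on the stress kinases. It was counted 2696, 2521 and 2652 times in WT, against 1834, 1202 and 1587 times in the knockout. All knockout libraries lay below all WT libraries, with means of 150 ± 6.57 CPM in WT and 83.9 ± 18.2 CPM in *Aff3ir-ORF2*-/- MEFs (SD, n = 3 each). The log2 fold change was -0.84 (SE 0.13, adjusted p = 0.000703), and -0.69 without replicate 2 (adjusted p = 2.26e-06).

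**Figure D1:**
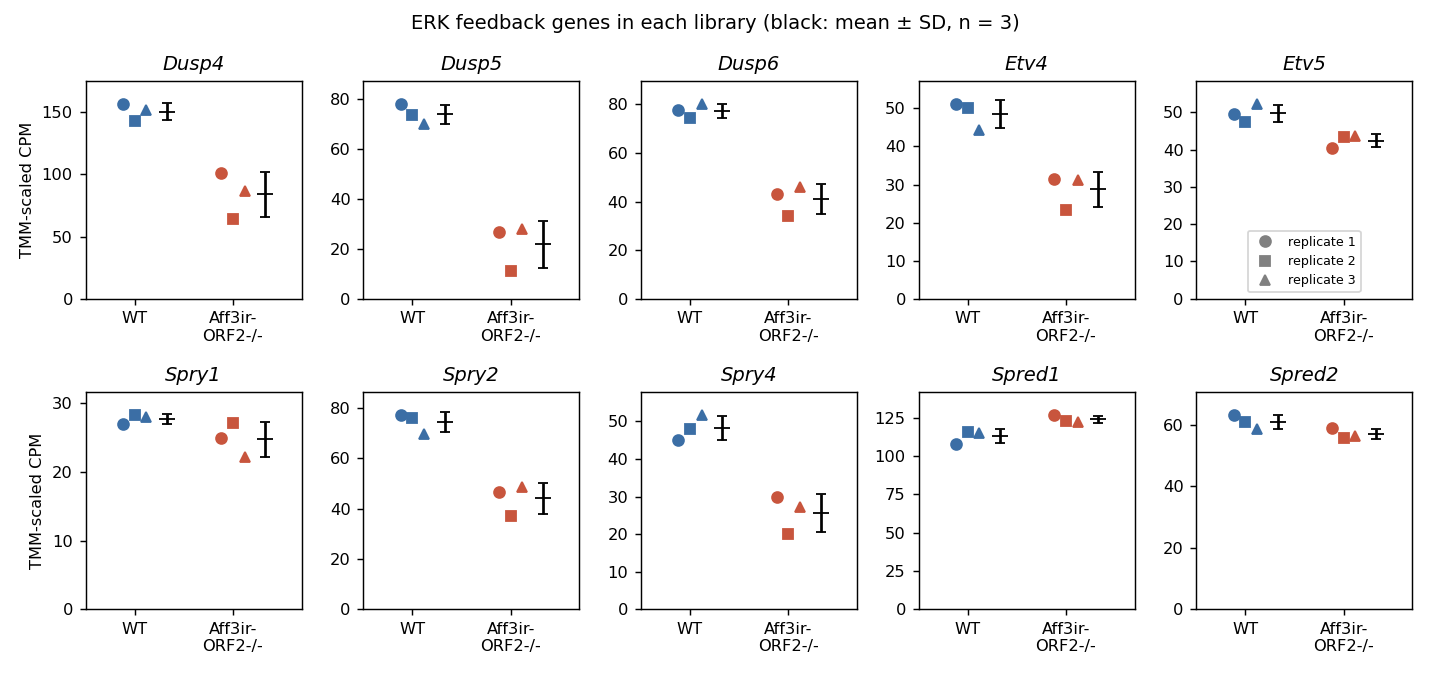
CPM (y axes, from 0, 1 panel per gene) of the 10 feedback genes in each of the 3 WT and 3 *Aff3ir-ORF2*-/- libraries, with a point per library and a bar at the mean ± SD. The genotypes overlap in CPM only for *Spry1* and *Spred2*, and *Dusp5* drops from a mean of 73.8 to 21.8 CPM.

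Sprouty proteins block the step from growth factor receptors to Ras and Raf, and the members of the family did not change alike. *Spry4* had 779, 842 and 903 counts in WT, against 545, 375 and 499 in the knockout. Its genotypes did not overlap, and the level went from 48.2 ± 3.27 to 25.7 ± 5.05 CPM (SD, n = 3 each). The log2 fold change was -0.91 (SE 0.13, adjusted p = 0.000372), and -0.76 without replicate 2 (adjusted p = 2.89e-06).

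*Spry2* had 1330, 1333 and 1218 counts in WT, against 848, 690 and 895 in the knockout. Again no knockout library reached the WT range, with 74.2 ± 3.96 CPM in WT and 44.1 ± 6.24 CPM in *Aff3ir-ORF2*-/- MEFs (SD, n = 3 each). On the log2 scale the change was -0.75 (SE 0.10, adjusted p = 0.000225), and -0.64 without replicate 2 (adjusted p = 1.56e-06).

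*Spry1* had 464, 497 and 489 counts in WT, against 455, 506 and 406 in the knockout. Here the genotypes overlapped, and replicate 2, the lowest library for *Spry2* and *Spry4*, was the highest of the knockout libraries. The means were 27.7 ± 0.718 and 24.7 ± 2.52 CPM (SD, n = 3 each), and the log2 fold change of -0.16 did not pass the threshold (95% interval -0.34 to 0.02, adjusted p = 0.111). Without replicate 2 it was -0.24 with an adjusted p of 0.0112, still under the 1.5-fold limit. An exon of *Spry1* overlaps the opposite-strand Gm42922 in GENCODE M21.

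Spred proteins bind Ras and bring the Ras inhibitor neurofibromin to the cell membrane. Neither gene was called changed. *Spred1* had 1858, 2035 and 2011 counts in WT, against 2307, 2287 and 2248 in the knockout, so that it was the only one of the 10 whose knockout libraries all lay above those of WT. The levels were 113 ± 4.44 and 124 ± 2.34 CPM (SD, n = 3 each), with a log2 fold change of 0.14 (95% interval 0.03 to 0.24, adjusted p = 0.03), which is 1.10-fold and under the 1.5-fold limit. Without replicate 2 it was 0.14 (adjusted p = 0.0147).

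*Spred2* had 1090, 1070 and 1026 counts in WT, against 1076, 1040 and 1035 in the knockout. The groups overlapped at 60.9 ± 2.25 and 57.1 ± 1.74 CPM (SD, n = 3 each). The log2 fold change was -0.09 (95% interval -0.21 to 0.02, adjusted p = 0.14), and -0.08 without replicate 2 (adjusted p = 0.165). For both *Spred* genes the interval left out a 1.5-fold change in either direction.

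*Etv4* and *Etv5* belong to the PEA3 subfamily of Ets factors, which carry growth factor signals to target genes in development. *Etv4* had 881, 882 and 774 counts in WT, against 572, 437 and 575 in the knockout. Its genotypes did not overlap, and the level fell from 48.5 ± 3.68 to 28.7 ± 4.57 CPM (SD, n = 3 each), which is -0.76 on the log2 scale (SE 0.11, adjusted p = 0.0005). Without replicate 2 the log2 fold change was -0.63 (adjusted p = 9.3e-06).

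*Etv5* had 857, 834 and 912 counts in WT, against 735, 809 and 802 in the knockout. The groups were apart by a narrow margin, at 49.8 ± 2.38 and 42.5 ± 1.85 CPM (SD, n = 3 each). The log2 fold change of -0.23 passed the adjusted p (0.00927) and not the 1.5-fold limit, which lies outside its 95% interval of -0.36 to -0.10. It was -0.25 without replicate 2 (adjusted p = 0.00297).

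The Sprouty, Spred and PEA3 families each have a relative outside the 10 genes, and all 3 relatives rose, beside 14.3% of all genes tested. *Spry3* had 14, 21 and 22 counts in WT, against 32, 54 and 60 in the knockout (log2 fold change 1.27, SE 0.29, adjusted p = 0.00557). *Etv1*, the third PEA3 factor, had 102, 119 and 96 counts in WT, against 214, 291 and 303 in the knockout (1.27, SE 0.15, adjusted p = 0.000138). *Spred3* had 534, 502 and 504 counts in WT, against 911, 886 and 854 in the knockout (0.71, SE 0.06, adjusted p = 2.2e-05). Their libraries did not overlap between genotypes, as in 66.0% of all genes tested. *Spry3* had the fewest counts and the largest SE of the 3. All of them were called higher in all 14 alternative fits.

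**Figure D2:**
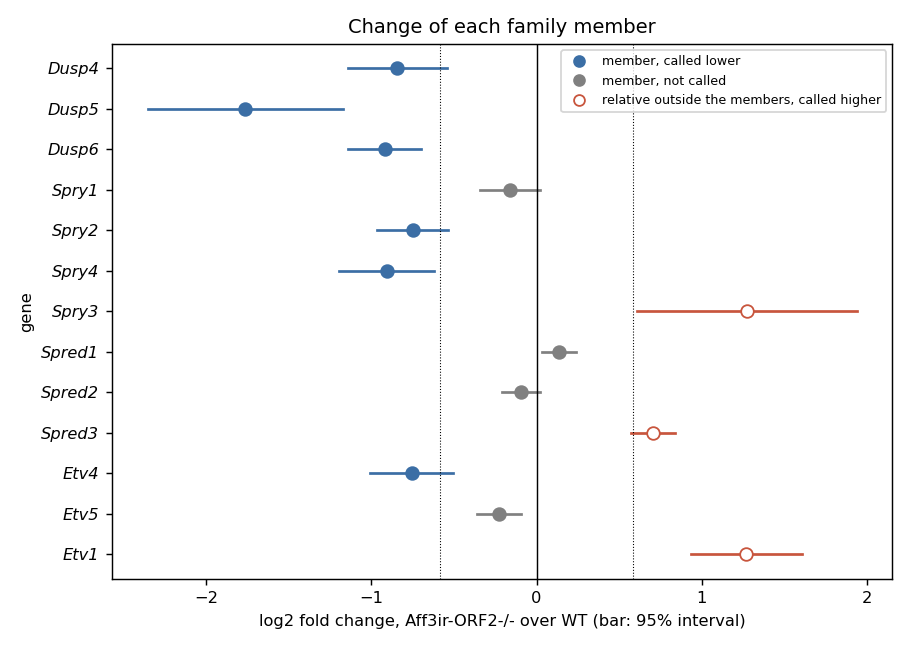
Log2 fold change of *Aff3ir-ORF2*-/- over WT MEFs (x axis, with its 95% interval as a bar) for the 10 feedback genes (filled) and 3 relatives outside them (open), 1 gene per row, with dotted lines at 1.5-fold. The 6 called members lie between -1.76 and -0.75, the other 4 between -0.23 and 0.14, and the relatives between 0.71 and 1.27.

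Relatives were then compared within each library through the log2 ratio of their levels, which does not depend on how the libraries are scaled. With 3 libraries against 3 the smallest p an exact permutation test can give is 0.1, so no pair could pass 0.05, and 8 pairs were compared. The ratio of *Dusp4* to *Dusp5* was 1.03 ± 0.08 in WT and 2.04 ± 0.48 in *Aff3ir-ORF2*-/- MEFs (SD, n = 3 each, log2 scale; two-sided exact p = 0.1, adjusted p = 0.133), so that *Dusp5* was further below *Dusp4* in every knockout library. The ratio of *Dusp5* to *Dusp6* differed by -0.95 and did not overlap between genotypes either. *Dusp4* and *Dusp6* were at a ratio of 0.96 ± 0.04 in WT and 1.02 ± 0.18 in the knockout (difference 0.06, exact p = 1), and the groups overlapped.

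Among the Sprouty genes, the ratio of *Spry1* to *Spry2* differed by 0.59 and that of *Spry1* to *Spry4* by 0.76 between genotypes, both without overlap. That of *Spry2* to *Spry4* differed by 0.16, with overlap (exact p = 0.3, adjusted p = 0.343). The ratio of *Spred1* to *Spred2* differed by 0.23 and that of *Etv4* to *Etv5* by -0.54, without overlap. The 6 pairs without overlap all had the smallest possible p of 0.1 by the exact permutation test (adjusted p = 0.133 over the 8 pairs).

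To compare levels between genes, CPM were divided by the length of the longest protein-coding GENCODE M21 transcript. In WT MEFs *Dusp4* was highest, at 54.9 ± 2.40 CPM per kb (SD, n = 3), followed by *Spry2* (35.6 ± 1.90 CPM per kb), *Dusp5* (29.9 ± 1.55 CPM per kb) and *Dusp6* (27.7 ± 1.01 CPM per kb). *Etv4* (20.3 ± 1.54 CPM per kb), *Spred1* (18.8 ± 0.738 CPM per kb), *Spred2* (13.7 ± 0.505 CPM per kb) and *Etv5* (12.5 ± 0.599 CPM per kb) came next, and *Spry4* (10.1 ± 0.687 CPM per kb) and *Spry1* (9.99 ± 0.259 CPM per kb) were lowest. *Dusp5* and *Dusp6*, *Etv4* and *Spred1*, and *Spry4* and *Spry1* were neighbours whose means differed by less than the sum of their SDs. In *Aff3ir-ORF2*-/- MEFs the order was *Dusp4*, *Spry2*, *Spred1*, *Dusp6*, *Spred2*, *Etv4*, *Etv5*, *Spry1*, *Dusp5* and *Spry4*. Only *Spred1* and *Dusp6*, and *Etv5* and *Spry1*, were neighbours there whose means differed by more than the sum of their SDs. *Dusp4* was at 30.6 ± 6.65 CPM per kb, *Spry2* at 21.1 ± 2.99, *Spred1* at 20.6 ± 0.389, *Spry1* at 8.92 ± 0.910, *Dusp5* at 8.81 ± 3.82 and *Spry4* at 5.41 ± 1.06 CPM per kb. Without replicate 2, *Dusp5* was at 11.0 ± 0.380 CPM per kb (SD, n = 2), next to *Etv5* at 10.6 ± 0.594 and above *Spry1* at 8.49 ± 0.729 CPM per kb.

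The knockout libraries did not drop by equal amounts. *Aff3ir-ORF2*-/- replicate 2 was the lowest library in 6 of the 6 called members, and it was the lowest knockout library for 55.3% of all 957 genes called lower. Relative to the WT mean, *Dusp5* was at -1.47, -2.76 and -1.40 on the log2 scale in replicates 1, 2 and 3, and *Dusp4* at -0.58, -1.22 and -0.80. In these and the other called members replicates 1 and 3 alone were also below WT. The part of the cell makeup of the libraries in this order was not tested. The coefficient of variation of the 10 genes ranged from 2.59% to 7.59% between WT libraries and from 1.89% (*Spred1*) to 43.4% (*Dusp5*) between knockout libraries.

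**Figure D3:**
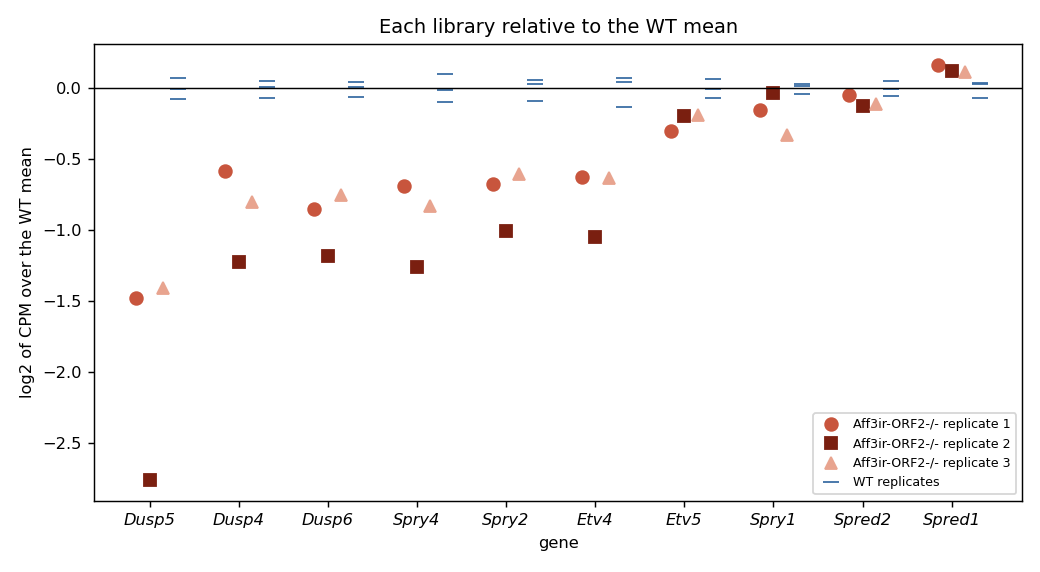
Log2 level of each of the 3 *Aff3ir-ORF2*-/- libraries over the WT mean (y axis) for the 10 feedback genes (x axis). Replicate 2 lies lowest in the 6 called members, down to -2.76 for *Dusp5*, while *Spred1* lies above 0 in all 3 libraries.

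The rest of the pathway was read from lists written by hand, of which 102 of 105 genes were tested. Of these, 27 were called lower (26.5%, beside 7.32% of all genes tested) and 10 higher (9.8%, beside 14.3%), with a median log2 fold change of -0.12. Each list that follows is to be read against the same shares of all genes. Among 8 other MAP kinase phosphatases tested, 3 fell (37.5%) and 0 rose (median -0.25). *Dusp10*, which acts mainly on the stress kinases p38 and JNK, had a log2 fold change of -1.57 (SE 0.19, adjusted p = 0.000152), and *Dusp9*, an ERK phosphatase, one of -1.30 (SE 0.11, adjusted p = 2.33e-05). *Dusp1* was at -0.59 (SE 0.20, adjusted p = 0.0304), but at -0.35 without *Aff3ir-ORF2*-/- replicate 2, under the 1.5-fold limit. It also lost the call without WT replicate 1, 2 or 3 (adjusted p = 0.0776, 0.0901 and 0.0645). *Dusp14* was not called (-0.56, adjusted p = 0.00886) but reached -0.63 without *Aff3ir-ORF2*-/- replicate 1, -0.68 without replicate 3 and -0.61 without WT replicate 3. *Dusp7* (0.49, adjusted p = 0.000355) and *Dusp3* (0.44, adjusted p = 6.12e-05) passed the adjusted p and not the fold limit.

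Of 12 other inhibitors of receptors and Ras, 1 fell and 1 rose (8.33% each, close to or below the 7.32% lower and 14.3% higher of all genes), with a median log2 fold change of 0.04. *Errfi1*, a feedback inhibitor of the EGF receptor, fell from 471 ± 9.83 to 171 ± 26.6 CPM (SD, n = 3 each; log2 fold change -1.46, SE 0.10, adjusted p = 7.92e-06). The gene that rose was *Dok2*, an adaptor of blood cells, with 9, 6 and 8 counts in WT, against 30, 60 and 39 in the knockout (2.39, SE 0.35, adjusted p = 0.000504). It passed the filter on low counts only through the knockout libraries, so its call is no support for the list, and the part of the macrophage cells in it was not tested. *Cblb*, a ubiquitin ligase for receptors, lay at -0.57 (adjusted p = 2.11e-05) and *Rasa2*, a Ras inhibitor, at -0.27 (adjusted p = 0.00484), both under the fold limit, and *Cblb* reached -0.60 without WT replicate 3 and -0.59 without *Aff3ir-ORF2*-/- replicate 1. *Pebp1*, the Raf kinase inhibitor, was at 0.09 (adjusted p = 0.0836).

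The kinases and adaptors of the cascade itself had 0 calls in either direction among 26 genes tested by edgeR. DESeq2 and limma voom called 0 as well. At an unadjusted p under 0.05 in edgeR, 6 were lower and 10 higher. By the adjusted p alone, 6 were lower, beside 27.6% of all genes tested, and 9 higher, beside 29.4%. In all 15 of the 26 passed it, beside 56.9%, so the list was close to the share of all genes. Their log2 fold changes ran from -0.40 (*Rps6ka2*, a kinase activated by ERK) to 0.38 (*Gab1*, an adaptor), with a median of 0.11. *Rras*, a relative of Ras, was at 0.36 (adjusted p = 0.00253), while the phosphatase gene *Ptpn11* was at 0.05 (adjusted p = 0.396).

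Of 11 growth factor receptors tested, 2 fell (18.2%) and 3 rose (27.3%), beside 7.32% and 14.3% of all genes, and the median log2 fold change was -0.13. By DESeq2 1 of the 11, *Csf1r*, was called higher. *Fgfr1*, a fibroblast growth factor receptor, fell from 714 ± 28.1 to 381 ± 31.5 CPM (SD, n = 3 each; log2 fold change -0.91, SE 0.07, adjusted p = 1.14e-05), and *Met*, the receptor of hepatocyte growth factor, fell by 0.89 on the log2 scale (SE 0.10, adjusted p = 0.000121). *Pdgfrb* was at 0.59 (adjusted p = 0.000181) and was under the fold limit at 0.49 without *Aff3ir-ORF2*-/- replicate 2, 0.58 without WT replicate 2 and 0.57 without WT replicate 3. *Csf1r*, the receptor of macrophage growth factor and itself one of the macrophage markers, rose by 4.31 on the log2 scale (adjusted p = 4.37e-06). *Erbb3*, named after its values were seen, was at 0.78 (adjusted p = 0.0407) on 17 to 31 counts in WT and 34 to 56 in the knockout. It was no longer called without WT replicate 1 (adjusted p = 0.139), WT replicate 3 (0.11) or *Aff3ir-ORF2*-/- replicate 3 (0.135), nor by DESeq2 (0.0833).

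Among 12 nuclear ERK substrates and Ets regulators, 3 fell (25%, beside 7.32% of all genes) and 0 rose, with a median of -0.02. *Etv6*, a repressor of the Ets family, had a log2 fold change of -0.63 (SE 0.05, adjusted p = 2.56e-05). The others that fell, *Elk4* (-0.73, adjusted p = 0.00099) and *Ets1* (-0.67, adjusted p = 0.000155), were named after their values were seen. Without *Aff3ir-ORF2*-/- replicate 2 only *Elk4* of the 12 was called lower, with *Etv6* and *Ets1* both at -0.58, just under the fold limit. *Cic*, which encodes Capicua, the repressor of *Etv* and *Dusp6* genes that ERK releases, was at 0.36 (adjusted p = 0.000117) and its partner *Atxn1* at -0.53 (adjusted p = 9.67e-05), both under the fold limit (*Atxn1* at -0.59 and called without *Aff3ir-ORF2*-/- replicate 3), as were *Gabpa* (-0.42, adjusted p = 6.88e-05) and *Elk3* (-0.11, adjusted p = 0.103).

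Of 19 other output genes of the pathway, 8 fell (42.1%, beside 7.32% of all genes) and 3 rose (15.8%, beside 14.3%), with a median log2 fold change of -0.37. *Myc* fell by 1.32 on the log2 scale (SE 0.07, adjusted p = 2.88e-06), *Fosl1*, an AP-1 subunit, by 1.61 (SE 0.15, adjusted p = 4.52e-05) and *Vgf*, a secreted neuropeptide precursor, by 1.80 (SE 0.15, adjusted p = 2.31e-05). *Emp1* (-0.53, adjusted p = 6.46e-05) and *Hmga2* (-0.32, adjusted p = 0.0553) were not called. The 3 that rose, named after their values were seen, were the ephrin receptor *Epha4* (0.74), the cytokine *Lif* (0.85) and the matrix protease *Mmp3* (0.65). *Lif* was at 0.58 without *Aff3ir-ORF2*-/- replicate 3 and *Mmp3* at 0.44 without replicate 2, both then under the fold limit, as was *Plaur* among those that fell (-0.57 without replicate 2). *Ereg*, not called at -0.25 with all libraries, was called at -0.63 without replicate 3. Of 11 immediate-early genes, 10 fell (90.9%) and 0 rose, with a median of -1.495, *Egr1* at -2.89 (adjusted p = 5.26e-07) and *Fos* at -1.20 (adjusted p = 0.000119).

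**Figure D4:**
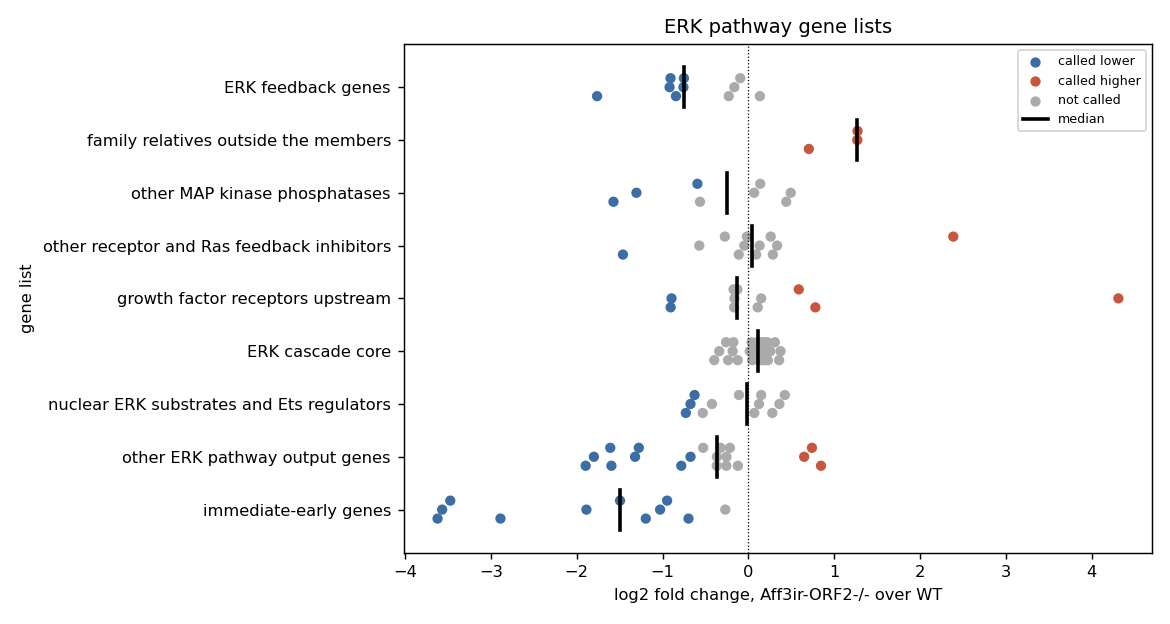
Log2 fold change of *Aff3ir-ORF2*-/- over WT MEFs (x axis) for every tested gene of the feedback genes and 8 other ERK pathway lists (rows), with a point per gene coloured by its call and a bar at the median. The feedback genes have a median of -0.75, the 26 core genes lie between -0.40 and 0.38, and the immediate-early genes have a median of -1.495.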

How the data were processed

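RNA of 6 libraries, 3 from WT and 3 from *Aff3ir-ORF2*-/- MEFs, had been sequenced as read pairs on a DNBSEQ instrument and filtered with SOAPnuke, by the methods of the study. For each gene, by NCBI Gene ID and symbol, the authors deposited an unnormalized estimated count in every library. The submitters' processing notes name the build mm8. The aligner, the counting tool, the annotation and the strand setting are not given in the sources used here, so coordinates are given only for RefSeq promoters of GRCm38.p6. Fractional values (10.6% to 11.3% per library) were rounded to whole counts.

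Libraries (17435133 to 18252330 counts) were scaled by TMM, with factors from 0.989 to 1.02, and filterByExpr (minimum count 10, minimum total 15) kept 13075 of 17092 genes. 3 counts, the limit that a count of 0 allows, are 0.164 to 0.172 CPM, for counting error only. Genotypes were compared by edgeR 4.0.16 (R 4.3.3) with the quasi-likelihood test, no covariate and Benjamini-Hochberg adjustment. Calls needed an adjusted p under 0.05 and the 1.5-fold change that the methods of the study use. Ratios of related genes were compared by two-sided exact permutation tests (SciPy 1.17.1).

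The members, lists and tests were chosen with earlier results of these data known. Genes outside the members were named by a rule: of each list up to 4 with the smallest adjusted p and up to 2 with the most counts, the 3 family relatives, and of the immediate-early genes *Egr1* and *Fos*. Some genes that the rule admits are not reported here by name, and others are named, after their values were seen, where a count or a changed call needs them. Alternatives were other scalings, filters and thresholds, DESeq2 1.42.0, limma 3.58.1 (voom), the replicate number as a block and each library left out. The functions were tested on simulated data. The simulation for the edgeR fit gave both genotypes the same spread, so it did not cover the unequal spread of these data.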

Additional observations from a re-analysis of the deposited data

How the results depend on the processing

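The same 6 members were called lower and 0 higher in all 14 alternative fits, which changed the scaling, the filter, the tool, the replicate block or the libraries. The log2 fold change over these fits ran from -1.98 to -1.44 for *Dusp5* and from -1.01 to -0.80 for *Dusp6*. Under a 2-fold threshold 1 member (*Dusp5*) was called lower, and with the adjusted p alone 1 member (*Spred1*) was called higher, beside 29.4% of all genes tested. With each library left out in turn, the difference in the ratio of *Dusp4* to *Dusp6* lay between -0.0408 and 0.1158, and the lowest, without *Aff3ir-ORF2*-/- replicate 1, had the other sign. With the replicate number as a block (replicate block), 6 members were called lower and 0 higher, and over all genes 975 were lower and 1870 higher, against 957 and 1865 without it. The libraries share only a number: the deviations of same-numbered WT and *Aff3ir-ORF2*-/- libraries from their genotype means correlated at 0.0386, 0.0424 and 0.0145 over 13075 genes, all under the limit of 0.1, although each library correlated best with its own number, a hint from the data only. The alternative fits gave 643 comparisons over 46 genes, those chosen by the naming rule and *Srf*, which was added by hand. Of these comparisons, 624 kept direction and side of the threshold, 15 lost a call, 4 gained one and 0 changed sign. *Dusp1* and *Pdgfrb* each lost the call in 7 of 14 fits, *Pdgfrb* among them with the block (0.58). *Dok2* was not tested under the filter of at least 10 counts in every library. The order of the members by level per kb without *Aff3ir-ORF2*-/- replicate 2 was added after seeing the data. No alternative moved the median of all genes by over 0.1 on the log2 scale.

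The depth gave each member at least 203 counts in every library, and *Dusp5* in *Aff3ir-ORF2*-/- replicate 2 was the lowest. With 3 libraries per genotype the exact tests of ratios could not pass 0.05. Phosphatase activity, ERK phosphorylation and protein levels were not measured here.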
